A study of Mus musculus with 23 samples.

Results

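Interferon-stimulated genes were followed in bulk RNA-seq libraries of gastrocnemius muscle and fat from wild-type mice and from mice with mutations in Bub1b, which encodes the mitotic checkpoint protein BubR1. The 9 genes described are Isg15, Ifit1, Ifit2, Ifit3, Irf7, Rsad2, Oasl2, Bst2 and Usp18. They were taken by gene symbol as rows of a table of read counts for 24062 genes, and all 9 were found and passed the filter on low counts in both tissues. They were chosen as a possible response to missegregated chromosomes, the error that the mitotic checkpoint prevents.

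The groups were wild type (WT), BubR1H/L1002P (HL1002P) and BubR1H/H (HH). H is a hypomorphic allele that lowers the amount of BubR1, and L1002P is an amino acid substitution; HL1002P mice carry one of each and HH mice carry H on both chromosomes. All mice were of a mixed 129Sve/C57BL/6 background and 8 to 10 months old, and the study describes both mutants as models of mosaic variegated aneuploidy (MVA), a progeroid syndrome. There were 4 libraries per group, except 3 for HH muscle, so 11 muscle and 12 fat libraries. The fat is labelled IAT, the alleles are carried by the whole animal, and the labels give neither the sex of the mice nor which libraries came from the same mouse. Nothing in them says that the libraries of a group came from separate animals, so p-values measure the spread between these libraries.

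Each library held 22.6 to 58.8 M counted reads (M for mega). Expression is given as CPM (counts divided by the library total and scaled to a fixed sum), scaled within each tissue by edgeR's TMM factors unless stated otherwise. Bub1b itself checked the labels in muscle, at 0.726 to 0.952 CPM in WT, 0.181 to 0.273 CPM in HL1002P and 0.326 to 0.520 CPM in HH. In fat its levels overlapped between the groups, at 7.08 to 11.6 CPM in WT, 6.12 to 22.1 CPM in HL1002P and 5.96 to 14.3 CPM in HH. Summed muscle fibre markers were at 138500 to 203900 CPM in muscle, and summed adipocyte markers were at 12240 to 43600 CPM in fat, so each tissue showed its defining transcripts. In 3 fat libraries the muscle fibre markers were also high (summed CPM of 16030 in WT replicate 3, 6054 in HL1002P replicate 4 and 15240 in HH replicate 1), against at most 1510 CPM in the others.

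Interferons are secreted proteins that warn neighbouring cells of infection or misplaced nucleic acid. Type I interferons bind a receptor that signals through the kinases JAK1 and TYK2 to transcription factors that enter the nucleus and bind the interferon-stimulated response element (ISRE) in front of its target genes. DNA outside the nucleus, such as the content of micronuclei formed by lagging chromosomes, can be sensed by cGAS, which signals through STING to the kinase TBK1 and to IRF3 and IRF7. The 9 genes sit at different points of this response. Irf7 encodes a transcription factor that amplifies interferon production, and Isg15 a ubiquitin-like protein that is joined to other proteins. Usp18 encodes the protease that removes ISG15 and that also damps signalling at the interferon receptor. Ifit1, Ifit2 and Ifit3 encode RNA-binding antiviral proteins, Rsad2 the radical SAM enzyme viperin, Oasl2 a member of the oligoadenylate synthetase family, and Bst2 the membrane protein tetherin.

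The sequence upstream of these genes is shown first, because the ISRE is the element through which type I interferon reaches its targets and matches to its core were found close to the start of some of these genes and not of others. RefSeq promoters (GRCm38.p6) were matched for 8 of the 9 genes, and Usp18 had no entry in the table used. The 250 bases before each annotated start were searched on both strands for the ISRE core, 2 copies of GAAA with any 2 bases between them, counting overlapping matches. Isg15, Ifit1, Ifit3, Rsad2 and Bst2 held at least 1 match, and Ifit2 (with 2 starts), Irf7 and Oasl2 held none. The core was present in 2.98% of the 32851 mouse promoters searched in the same way. A match is a match of letters and no evidence of binding, and no match says only that these letters are not in the window. The windows of 4 genes with the core and of Irf7 are printed 5′ to 3′ on the strand of the gene and end at the base before the start, with the ISRE core matches in capitals (on the other strand the core reads as 2 copies of TTTC). They are Isg15 (chr4:156200819-156201068, minus strand), Ifit1 (chr19:34640639-34640888, plus), Rsad2 (chr12:26456453-26456702, minus), Bst2 (chr8:71537473-71537722, minus) and Irf7 (chr7:141266425-141266674, minus).
Isg15: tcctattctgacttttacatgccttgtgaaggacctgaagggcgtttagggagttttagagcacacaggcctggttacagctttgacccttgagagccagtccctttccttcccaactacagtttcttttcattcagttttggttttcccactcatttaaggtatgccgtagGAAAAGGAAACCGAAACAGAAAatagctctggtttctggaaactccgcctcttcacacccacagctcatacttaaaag
Ifit1: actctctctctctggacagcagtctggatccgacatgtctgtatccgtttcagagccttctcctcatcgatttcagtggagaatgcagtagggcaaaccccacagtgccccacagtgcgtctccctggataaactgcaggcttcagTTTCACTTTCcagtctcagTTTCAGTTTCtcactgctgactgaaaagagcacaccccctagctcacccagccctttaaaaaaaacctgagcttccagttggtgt
Rsad2: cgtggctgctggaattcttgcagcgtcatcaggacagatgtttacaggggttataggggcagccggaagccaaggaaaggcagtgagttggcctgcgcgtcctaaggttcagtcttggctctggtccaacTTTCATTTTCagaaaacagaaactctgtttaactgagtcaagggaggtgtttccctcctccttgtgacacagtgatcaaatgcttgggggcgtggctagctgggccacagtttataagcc
Bst2: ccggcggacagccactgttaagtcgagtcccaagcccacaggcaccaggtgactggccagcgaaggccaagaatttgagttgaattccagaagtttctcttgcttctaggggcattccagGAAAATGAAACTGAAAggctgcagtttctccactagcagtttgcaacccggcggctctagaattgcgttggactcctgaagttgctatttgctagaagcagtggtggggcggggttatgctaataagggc
Irf7: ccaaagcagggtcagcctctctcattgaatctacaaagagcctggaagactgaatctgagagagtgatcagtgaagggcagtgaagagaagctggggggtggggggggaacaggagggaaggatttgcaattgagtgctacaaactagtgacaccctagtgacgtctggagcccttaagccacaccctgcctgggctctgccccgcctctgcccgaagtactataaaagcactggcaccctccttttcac
The Isg15 window carries 3 overlapping matches between 78 and 57 bases before the start. Ifit1 carries 2 separate matches, beginning 104 and 85 bases before the start, and Ifit3 carries 2, beginning 156 and 122 bases before it. Rsad2 has a single match 120 to 111 bases before the start, and Bst2 has 2 overlapping ones between 130 and 115 bases before it.

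**Figure D1:**
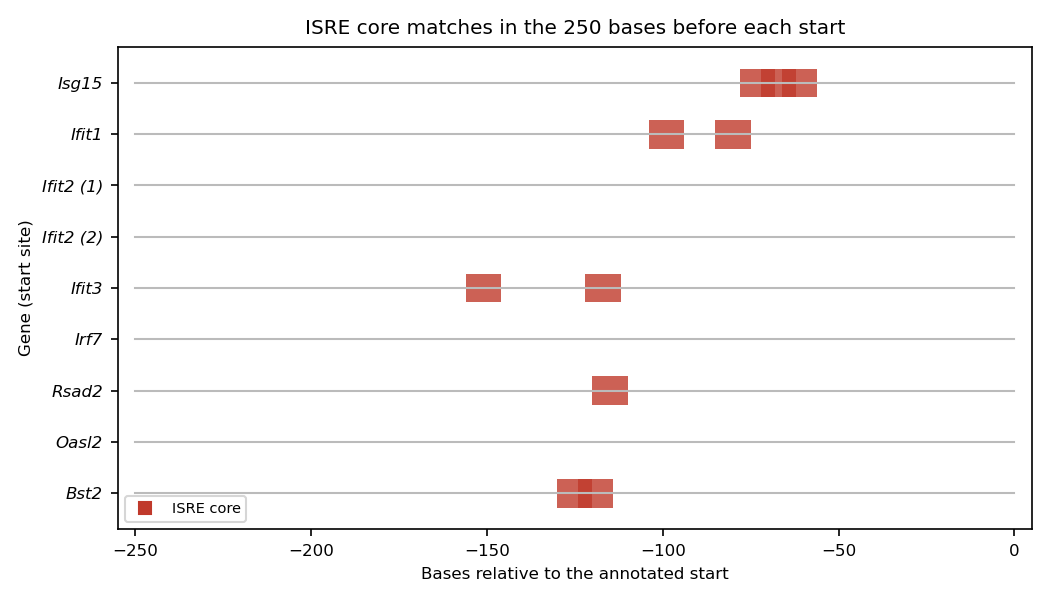
Position of ISRE core (2 copies of GAAA with 2 free bases between them, red) matches on either strand in the 250 bases before the annotated start of 8 of the 9 genes, with bases relative to the start on the horizontal axis. Ifit2 has 2 annotated starts, Usp18 had no promoter entry, and the ISRE matches lie between 156 and 57 bases before the start in 5 genes.

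Sequence shared with other genes bears on their counts. Ifit1, Ifit2 and Ifit3 are neighbours on chromosome 19 (GRCm38, GENCODE, 34550694 to 34650009). Of the 50-base stretches of Ifit3 exons, 51.2% also occur in its neighbour Ifit3b, and 7.13% of those of Ifit1 occur in Ifit1bl1 or Ifit1bl2. How the submitters' counting treated reads with several matches is not given in the sources used here, so the level of Ifit3 is uncertain. At most 3.96% of the stretches of the other 7 genes were shared.

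In muscle the 9 genes were expressed at low levels in every group, and none passed the test in either mutant. Their values in HL1002P muscle were nevertheless above WT on average for all 9 genes, and in HH muscle for 8. The test was edgeR's quasi-likelihood test with Benjamini-Hochberg adjustment over all 14580 genes tested, at an adjusted p under 0.05. Of all genes tested, 0.117% passed in HL1002P against WT, and 0 of the 9 did. Of all genes, 0.377% passed in HH against WT, again with 0 of the 9. At an unadjusted p under 0.05 there were 2 of the 9 (Irf7 and Oasl2) in HL1002P, beside 1537 of all 14580 genes, and 1 (Rsad2) in HH, beside 2413 genes. DESeq2 called 0 of the 9 in both comparisons, beside 1.29% and 4.48% of all genes.

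Oasl2, the oligoadenylate synthetase-like gene, was at 1.86, 2.11, 2.49 and 2.21 CPM in the 4 WT muscle libraries. In HL1002P it was at 3.60, 2.89, 2.62 and 7.40 CPM, and in HH at 1.49, 2.92 and 5.40 CPM. All HL1002P libraries lay above all WT libraries, and the HH libraries fell on both sides of WT. It had a log2 fold change of 0.93 ± 0.39 (SE) in HL1002P, with an edgeR adjusted p of 0.451, and of 0.60 ± 0.42 in HH (adjusted p = 0.511). Oasl2 was the only one of the 9 genes whose HL1002P and WT muscle libraries did not overlap, and 3.09% of all genes lay wholly above WT in the same way.

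Irf7, the amplifying transcription factor, was at 3.25, 3.38, 4.56 and 2.54 CPM in WT muscle. It was at 4.20, 4.42, 4.58 and 10.5 CPM in HL1002P and at 4.14, 4.83 and 8.00 CPM in HH. Apart from the highest library of each mutant, the mutant values lay within or just above the range of WT. The log2 fold changes were 0.79 ± 0.33 in HL1002P (edgeR adjusted p = 0.441) and 0.72 ± 0.35 in HH (adjusted p = 0.323).

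Rsad2, which encodes viperin, had its highest mean in HH, and its HH libraries were the most alike. It was at 1.51, 2.82, 1.45 and 0.907 CPM in WT, at 1.99, 2.26, 1.85 and 3.34 CPM in HL1002P and at 3.42, 3.04 and 3.01 CPM in HH. The 3 HH libraries all lay above the 4 WT libraries, as did those of 7.38% of all genes. The log2 fold change in HH was 0.91 ± 0.33 (edgeR adjusted p = 0.209) and in HL1002P 0.49 ± 0.31 (adjusted p = 0.612).

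Isg15, the ubiquitin-like modifier, was at 1.11, 0.941, 1.84 and 1.07 CPM in WT muscle. It was at 1.81, 1.76, 1.38 and 2.87 CPM in HL1002P and at 0.978, 1.43 and 1.89 CPM in HH. WT replicate 3 lay within the HL1002P values, so the groups overlapped. The log2 fold change was 0.67 ± 0.31 in HL1002P (edgeR adjusted p = 0.481) and 0.21 ± 0.34 in HH.

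The other 5 genes overlapped with WT in both mutants. Bst2, or tetherin, averaged 10.2 ± 2.46 CPM (SD, n = 4) in WT, 14.8 ± 6.28 CPM (n = 4) in HL1002P and 11.2 ± 4.77 CPM (n = 3) in HH. Usp18, the ISG15 protease, was the nearest to WT of the 9 genes in HL1002P, at 2.33 ± 0.251 CPM in WT, 2.41 ± 0.405 CPM in HL1002P and 2.09 ± 1.11 CPM in HH. The log2 fold changes of Ifit1, Ifit2 and Ifit3 were 0.53 ± 0.34, 0.38 ± 0.28 and 0.51 ± 0.51 in HL1002P. In HH they were 0.47 ± 0.37, 0.37 ± 0.30 and 0.16 ± 0.55. Over the 9 genes the log2 fold changes had a median of 0.527 for HL1002P and of 0.373 for HH, beside medians over all genes of 0.004 and 0.013. Between the mutants, 0 of the 9 genes passed (0 at an unadjusted p under 0.05, and 0 with DESeq2), beside 0.0206% of all genes. The log2 differences of HL1002P from HH ran from -0.42 ± 0.33 for Rsad2 to 0.45 ± 0.34 for Isg15, with a median of 0.204 and 8 of the 9 above 0. With the replicate block, in which libraries of the same number are compared, that median was 0.023 and 5 of the 9 were above 0.

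**Figure D2:**
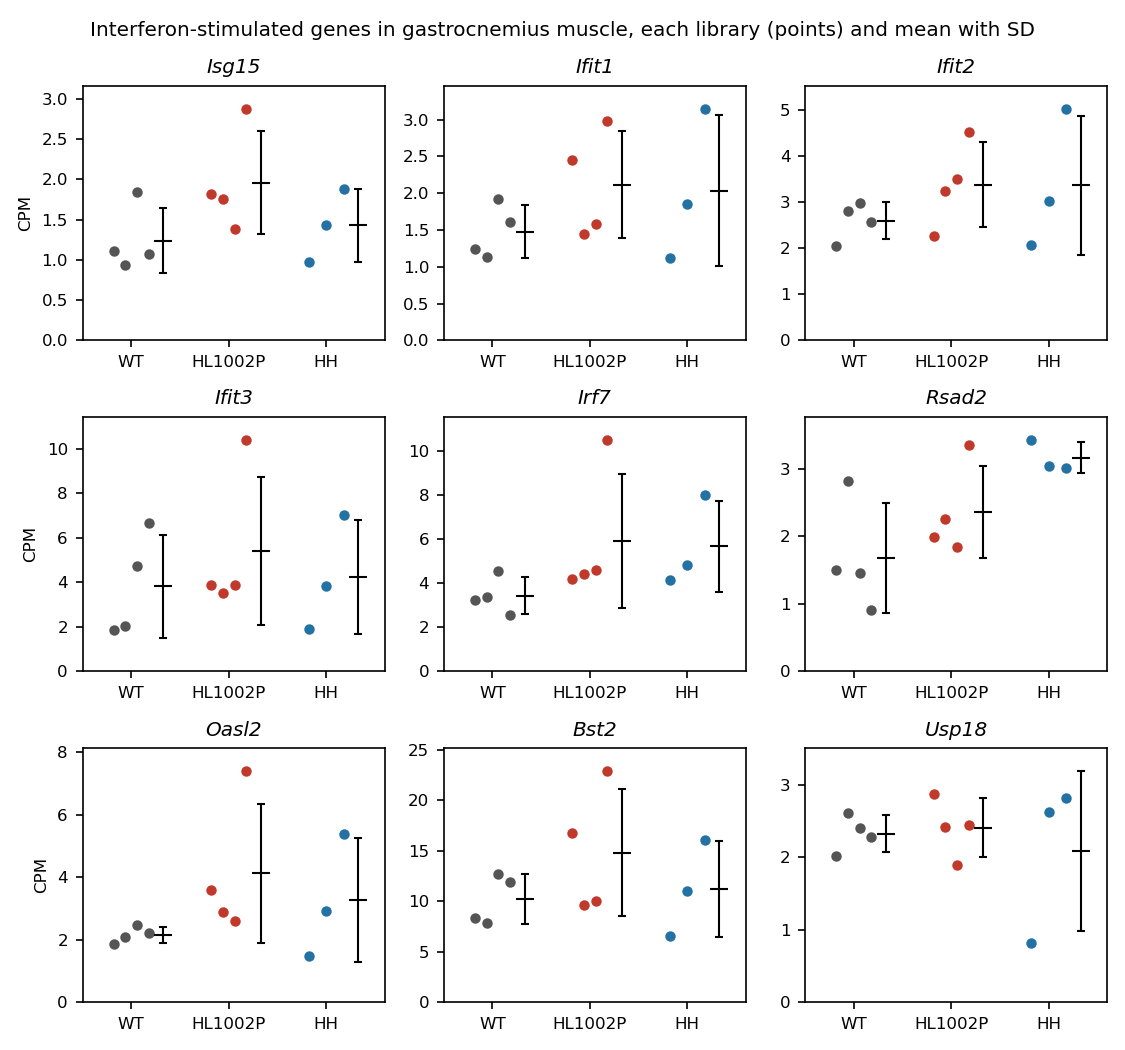
CPM of each interferon-stimulated gene in each gastrocnemius library (points, in replicate order within a group) with the mean and SD beside them, for 4 WT, 4 HL1002P and 3 HH libraries. HL1002P replicate 4 is the highest of its group for 8 genes and HH replicate 3 for 8.

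Single libraries moved these values in muscle. HL1002P replicate 4 was the highest library of its group for 8 of the 9 genes and the highest of all muscle libraries for 5. Without it the median log2 fold change over the 9 genes was 0.266, with 8 above 0. In HH muscle, replicate 3 was the highest of its group for 8 genes and replicate 1 the lowest for 8. Without HH replicate 3 the median was -0.032, with 4 above 0, and without HH replicate 1 it was 0.625, with 9 above 0. Between the mutants, the median was -0.165 without HL1002P replicate 4 and -0.110 without HH replicate 1.

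Macrophage transcripts also varied between the muscle libraries. The 12 macrophage markers summed to 66.4 to 186 CPM in WT muscle, 152 to 463 CPM in HL1002P and 199 to 285 CPM in HH, and the highest library of each mutant was HL1002P replicate 4 and HH replicate 3. HH replicate 1, the lowest of its group for 8 of the 9 genes, was at 199.3 CPM, the lowest of HH and above all WT libraries. T cell markers summed to 4.84 to 7.44 CPM in WT, 8.38 to 12.6 CPM in HL1002P and 7.08 to 9.77 CPM in HH. None of the 12 macrophage markers was at 0 in all libraries of a group. In each mutant all 12 had log2 fold changes above 0 and 0 passed the test, beside 0.117% of all genes in HL1002P and 0.377% in HH. At an unadjusted edgeR p under 0.05 there were 10 of the 12 in HL1002P, beside 1537 of all 14580 genes, and 2 in HH, beside 2413 genes. With the macrophage level (the mean log2 CPM of these markers, not their sum) as a covariate, the median log2 fold change of the 9 genes was -0.006 in HL1002P, with 4 above 0. It was -0.110 in HH, with 3 above 0. In whole tissue, more cells of a type and more RNA of a gene per cell cannot be told apart.

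In fat, Irf7 rose in both mutants, and it was the only one of the 9 genes to pass the test. Usp18 averaged 24.0 CPM in HL1002P and 23.7 CPM in HH against 12.4 CPM in WT, close to the threshold but not past it. The remaining genes lay nearer to WT, and Oasl2 was below it on average in both. These counts stand against a background in which many genes differed: 31.8% of the 16266 genes tested passed in HL1002P against WT and 20.8% in HH against WT. Of the 9 genes, 1 passed in each comparison, and it was higher. In that direction 17.3% of all genes passed in HL1002P and 12.3% in HH. DESeq2 called 2 in each, Irf7 and Usp18, beside 41.2% of all genes in HL1002P and 32% in HH.

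Irf7 was at 42.6, 26.7, 32.6 and 38.1 CPM in the 4 WT fat libraries. It was at 92.1, 103, 81.4 and 38.6 CPM in HL1002P and at 67.7, 152.6, 87.3 and 64.4 CPM in HH. The 4 HH libraries lay above all WT libraries, as did those of 15% of all genes, whereas HL1002P replicate 4 lay within the WT range. The group means were 35.0 ± 6.86 CPM (SD, n = 4) in WT, 78.8 ± 28.2 CPM (n = 4) in HL1002P and 93.0 ± 41.0 CPM (n = 4) in HH. Irf7 was 2.25-fold higher in HL1002P, a log2 fold change of 1.17 ± 0.33 (edgeR adjusted p = 0.0239), and 2.66-fold higher in HH, a log2 fold change of 1.41 ± 0.33 (adjusted p = 0.0183). Its log2 fold change ranged from 1.06 to 1.45 in HL1002P and from 1.08 to 1.61 in HH when 1 library was left out. The call was lost in HL1002P without WT replicate 2 (1.08, adjusted p = 0.0635) and without HL1002P replicate 1 (1.09, 0.0679), replicate 2 (1.06, 0.0724) or replicate 3 (1.21, 0.0568). In HH it was lost without WT replicate 2 (1.33, adjusted p = 0.0515), HH replicate 2 (1.08, 0.0535) or HH replicate 3 (1.49, 0.0530). Without the 3 libraries that held muscle fibre transcripts it was 1.36 ± 0.31 in HL1002P (adjusted p = 0.00838) and 1.50 ± 0.31 in HH (adjusted p = 0.00940).

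Usp18 was at 10.0, 8.11, 13.2 and 18.2 CPM in WT fat. It was at 25.6, 31.1, 24.7 and 14.5 CPM in HL1002P and at 17.3, 33.6, 30.0 and 13.8 CPM in HH. In each mutant at least 1 library lay within the WT range, so the groups overlapped. The log2 fold changes were 0.95 ± 0.34 in HL1002P (edgeR adjusted p = 0.0526) and 0.93 ± 0.34 in HH (adjusted p = 0.0705). Usp18 passed in both comparisons without WT replicate 4 (1.20 and 1.18), in HL1002P without HL1002P replicate 4 (1.19) and in HH without HH replicate 4 (1.18). Without the 3 libraries that held muscle fibre transcripts it passed in HL1002P (1.16 ± 0.38, adjusted p = 0.0340) and not in HH (1.09 ± 0.38, adjusted p = 0.0525).

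Oasl2 was at 24.2, 10.9, 20.4 and 32.4 CPM in WT fat, at 16.7, 15.1, 15.9 and 17.2 CPM in HL1002P and at 18.6, 20.6, 11.1 and 19.4 CPM in HH. The WT libraries spread over both sides of the mutant libraries. Its log2 fold changes were -0.44 ± 0.28 in HL1002P (edgeR adjusted p = 0.241) and -0.34 ± 0.28 in HH (adjusted p = 0.390).

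Bst2 was at 103.6, 80.0, 83.5 and 84.2 CPM in WT, at 139, 104, 114 and 90.9 CPM in HL1002P and at 102.7, 123, 136 and 82.9 CPM in HH. Its mutant libraries were higher on average and overlapped with WT. The log2 fold changes were 0.35 ± 0.17 in HL1002P (edgeR adjusted p = 0.131) and 0.34 ± 0.17 in HH (adjusted p = 0.162), the smallest errors among the 9 genes in fat.

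Isg15 averaged 10.5 ± 1.25 CPM (SD, n = 4) in WT fat, 13.3 ± 3.29 CPM in HL1002P and 13.3 ± 6.27 CPM in HH. The antiviral IFIT genes gave log2 fold changes in HL1002P of 0.39 ± 0.40 (Ifit1), 0.21 ± 0.30 (Ifit2) and -0.05 ± 0.35 (Ifit3). In HH they gave 0.45 ± 0.40, 0.42 ± 0.30 and 0.34 ± 0.35. Rsad2 was lowest among the 9 genes in HL1002P, with -0.51 ± 0.46, and gave 0.15 ± 0.46 in HH. The median over the 9 genes was 0.337 in HL1002P, with 6 above 0, and 0.344 in HH, with 8 above 0, beside medians over all genes of -0.068 and -0.056. The HL1002P and HH comparisons share their WT libraries in each tissue, so their values are not independent of each other.

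**Figure D3:**
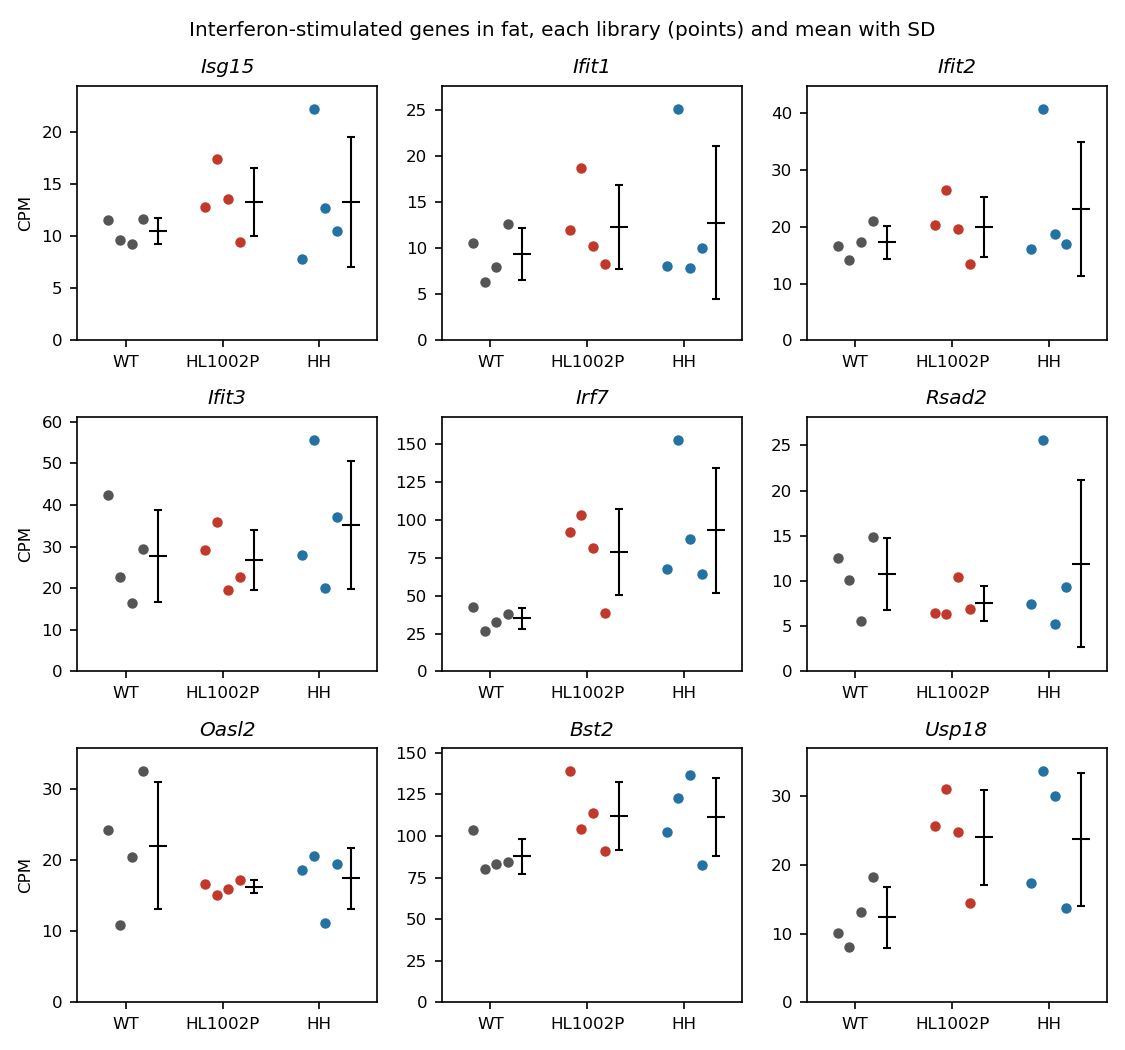
CPM of each interferon-stimulated gene in each fat library (points, in replicate order within a group) with the mean and SD beside them, for 4 WT, 4 HL1002P and 4 HH libraries. Irf7 lies above the WT libraries in 4 of 4 HH libraries and 3 of 4 HL1002P libraries, and HH replicate 2 is the highest of its group for 8 genes.

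HH replicate 2 stood out among the fat libraries: it was the highest of its group for 8 of the 9 genes and the highest of all fat libraries for 7. Without it the median log2 fold change of HH against WT was 0.017, with 5 of the 9 genes above 0 and 0 passing. The share of all genes called also fell, from 20.8% to 7.09%, and Irf7 was at 1.08 ± 0.30 (edgeR adjusted p = 0.0535). HL1002P replicate 4 was the lowest of its group for 6 genes, and WT replicate 2 was the lowest of all fat libraries for 5. Between the mutants, 0 of the 9 genes passed, 0 of them at an unadjusted p under 0.05 and 0 with DESeq2, and 0% of all genes did. The log2 differences of HL1002P from HH ran from -0.66 ± 0.46 for Rsad2 to 0.02 ± 0.34 for Usp18, and that of Irf7 was -0.24 ± 0.33.

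Lymphocyte transcripts differed between the same fat libraries. The 9 B cell markers in the table summed to 23.7 to 603 CPM in WT, 1214 to 3482 CPM in HL1002P and 1598 to 3131 CPM in HH, with 9 of 9 higher in HL1002P and 8 of 9 in HH. The 12 T cell markers summed to 97.2 to 337 CPM in WT, 659 to 1323 CPM in HL1002P and 627 to 1388 CPM in HH, with 12 and 10 higher. No marker of either list was at 0 in all libraries of a fat group. The 10 markers of plasmacytoid dendritic cells, which express Irf7 at rest, summed to 181.1 to 475.1 CPM in WT, 539.2 to 816.8 CPM in HL1002P and 443.9 to 710.6 CPM in HH. In each mutant 4 of these 10 were higher and 6 did not pass, and 2 (Tcf4 and Cox6a2) had log2 fold changes below 0. In muscle the same list summed to 795.9 to 1332 CPM, so its sum may not measure these cells alone. Siglech, a defining gene of these cells and one of the 4 in both mutants, was at 2.13 to 11.5 CPM in WT fat, 24.6 to 58.5 CPM in HL1002P and 22.5 to 71.6 CPM in HH. The 12 macrophage markers summed to 1881 to 2234 CPM in WT fat, 1680 to 3873 CPM in HL1002P and 2034 to 4476 CPM in HH. HL1002P replicate 4, the mutant library with Irf7 in the WT range, also had the lowest B and T cell sum of the mutants, 1873.3 CPM, beside 120.9 to 925.3 CPM in WT. The same library had the lowest macrophage sum of all fat libraries, 1680 CPM, and muscle fibre markers at 6054 CPM. Which of these goes with its Irf7 level was not tested. HH replicate 2, the library with the most Irf7, was not the one with the highest lymphocyte sum (3131 CPM, against 4519 CPM in HH replicate 3), but it had the highest macrophage sum of all fat libraries, 4476 CPM.

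The lymphocyte level used as a covariate was the mean log2 CPM of the B and T cell markers. Fitted with it, the log2 fold change of Irf7 was 0.999 ± 0.65 in HL1002P (edgeR adjusted p = 0.999) and 1.26 ± 0.60 in HH (adjusted p = 0.997), and 0 of all genes passed. That of Usp18 was 0.09 ± 0.57 and 0.16 ± 0.53. The summed B and T cell markers did not overlap between WT and mutant fat, so the lymphocyte level and the genotype cannot be told apart in these libraries. With the macrophage level as the covariate, Irf7 was at 0.88 ± 0.22 in HL1002P (adjusted p = 0.0206) and at 0.89 ± 0.23 in HH (adjusted p = 0.0567).

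**Figure D4:**
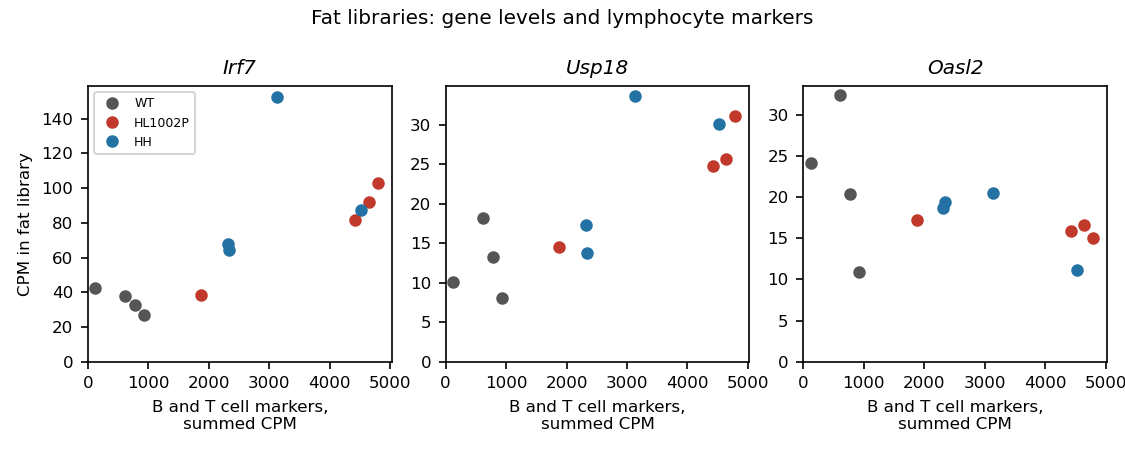
CPM of Irf7, Usp18 and Oasl2 in each fat library against the summed CPM of B and T cell markers in the same library, coloured by genotype (4 libraries each). WT libraries sit at 120.9 to 925.3 summed CPM and mutant libraries at 1873.3 CPM and above, and Oasl2 is highest in a WT library.

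Across tissues, all 9 genes were higher in WT fat than in WT muscle. This comparison used CPM scaled by TMM over all 23 libraries, on which 41.6% of 16863 genes were higher in fat and 9 of the 9 genes were. The log2 fold changes ran from 1.17 ± 0.35 for Usp18 (edgeR adjusted p = 0.00593) to 2.11 ± 0.37 for Irf7 (adjusted p = 3.5e-05), with a median of 1.626 beside 0.302 over all genes. The others were 2.10 ± 0.38 for Oasl2, 1.86 ± 0.29 for Bst2, 1.85 ± 0.32 for Isg15, 1.63 ± 0.48 for Ifit3, 1.48 ± 0.32 for Ifit2, 1.43 ± 0.43 for Rsad2 and 1.43 ± 0.40 for Ifit1. On this scale Irf7 was at 28.8, 17.7, 21.6 and 25.6 CPM in WT fat and at 5.16, 5.43, 7.18 and 3.98 CPM in WT muscle. The values of the tissues did not overlap for Irf7. RNA of the tissues was extracted with different kits, so kit and tissue cannot be told apart. With the macrophage level as a covariate all 9 log2 fold changes were below 0 and 0 passed, while the share of all genes called went from 73.5% to 19.4%. The 12 macrophage markers were themselves all higher in fat. Scaled within each tissue, they summed to 66.4 to 186 CPM in WT muscle and 1881 to 2234 CPM in WT fat. Macrophage level and tissue thus cannot be told apart.

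Per length, as reads per kilobase of exon on the scale of all 23 libraries (RPKM), Bst2 had the highest level of the 9 genes in every group, from 17.9 ± 4.15 RPKM (SD, n = 4) in WT muscle to 82.6 ± 15.3 RPKM (n = 4) in HL1002P fat. Next in WT fat came Ifit3 at 10.6 ± 4.35, Isg15 at 9.32 ± 1.21 and Irf7 at 6.20 ± 1.28 RPKM, and the first 2 of these differed by less than the larger of their SDs. Usp18, Ifit2, Ifit1, Oasl2 and Rsad2 followed between 2.97 and 1.66 RPKM, each differing from the next by less than the larger of their SDs. In HL1002P and HH fat Irf7 had the next highest level after Bst2, at 13.9 ± 5.06 and 16.2 ± 7.17 RPKM, within its SD of the gene that followed it (Isg15 at 11.7 in HL1002P and Ifit3 at 13.3 in HH). In WT muscle the lowest levels were those of Oasl2 at 0.538 ± 0.0621 and Rsad2 at 0.613 ± 0.305 RPKM.

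Whether a genotype difference itself differed between the tissues was tested as an interaction. Of all genes, 11.3% passed for HL1002P and 3.71% for HH, and 0 of the 9 did for either. At an unadjusted p under 0.05 there was 1 for each, Oasl2 in HL1002P and Usp18 in HH, beside 5115 and 3958 of all 16863 genes. DESeq2 called 0 of the 9, beside 18.8% and 10.2% of all genes. The log2 difference between the effect in fat and that in muscle was lowest for Oasl2, -1.37 ± 0.52 in HL1002P (edgeR adjusted p = 0.0860) and -0.92 ± 0.54 in HH (adjusted p = 0.309). It was highest for Usp18, 0.92 ± 0.49 in HL1002P (adjusted p = 0.215) and 1.10 ± 0.52 in HH (adjusted p = 0.204). For Irf7 it was 0.39 ± 0.50 in HL1002P and 0.71 ± 0.52 in HH, so the call of Irf7 in fat and not in muscle is not shown to be a difference between the tissues.

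**Figure D5:**
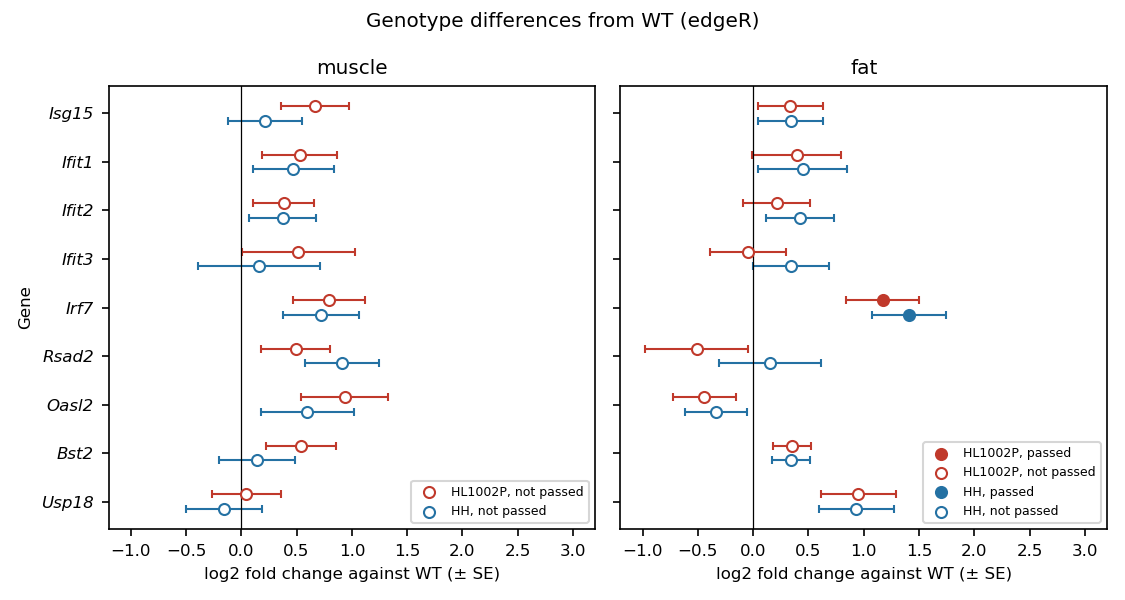
Log2 fold change against WT (edgeR, ± SE) of each of the 9 genes in muscle (11 libraries) and fat (12 libraries), HL1002P in red and HH in blue, with filled points for an adjusted p under 0.05. The filled points are those of Irf7 in fat, and Oasl2 lies to the right of 0 in muscle and to the left in fat.

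The genes around these 9 in the pathway were described from fixed lists. As background, 17.3% of all genes were higher and 14.5% lower in HL1002P fat, and 12.3% higher and 8.59% lower in HH fat. The interferons themselves were hardly detected. Of 19 interferon genes, 7 had a count in any fat library and 4 in any muscle library. Ifnb1 had 4 counts in all, in WT fat, and only Ifng passed the filter on low counts in fat, at means of 0.715 CPM in WT, 0.859 CPM in HL1002P and 0.735 CPM in HH, where it did not pass the test. No gene of any pathway list passed in either mutant in muscle.

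Of 19 nucleic acid sensors and adaptors, 10 rose and 1 fell in HL1002P fat, and 7 rose and 1 fell in HH fat. Tlr9, the endosomal receptor for CpG DNA, had log2 fold changes of 2.08 ± 0.34 and 1.90 ± 0.34 (edgeR adjusted p = 0.00775 and 0.0113). Aim2, a cytosolic DNA sensor of the inflammasome, had 1.89 ± 0.32 and 1.71 ± 0.32. Tmem173, the gene of STING, rose by 1.15 ± 0.27 in HH (adjusted p = 0.0178), and Ikbke, a kinase related to TBK1, by 1.32 ± 0.25 in HL1002P (adjusted p = 0.00801). The log2 differences of HL1002P from HH fat over the 19 genes ran only from -0.223 to 0.331, and 0 passed.

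Of 13 receptor and JAK-STAT genes, 6 rose in HL1002P fat and 5 in HH fat. The kinase gene Tyk2 rose by 0.63 ± 0.13 and 0.65 ± 0.13, and Jak2 by 0.51 ± 0.13 and 0.46 ± 0.13. Irf9 rose by 0.85 ± 0.23 in HL1002P, and Stat2 by 0.66 ± 0.19 in HH. Among the 3 enzymes that join ISG15 to proteins, Uba7, the activating enzyme, rose in both (0.88 ± 0.22 and 0.81 ± 0.22), and Herc6, a ligase, in HL1002P (0.82 ± 0.22). All edgeR adjusted p-values of these genes lay between 0.00994 and 0.0344.

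Of 30 other type I interferon-stimulated genes tested, 9 rose and 2 fell in HL1002P fat, and 7 rose and 2 fell in HH fat. Trim30a rose by 1.48 ± 0.27 and 1.04 ± 0.26, Pml, the scaffold of nuclear bodies, by 1.48 ± 0.28 and 1.25 ± 0.28, and Samd9l by 1.30 ± 0.24 in HL1002P. Parp9 fell by 0.59 ± 0.14 in HH (edgeR adjusted p = 0.0176). The list's median log2 fold changes were 0.545 and 0.575, above those of the 9 genes and beside -0.068 and -0.056 over all genes.

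Of 23 interferon gamma-responsive genes, 6 rose and 2 fell in HL1002P fat, and 5 rose in HH fat. Ciita, the regulator of MHC class II genes that B cells also express, rose by 2.28 ± 0.37 and 2.07 ± 0.36. The immunoproteasome gene Psmb8 rose by 0.99 ± 0.20 and 0.84 ± 0.20, Psmb9 by 0.86 ± 0.20 in HL1002P, and the peptide transporter gene Tap1 by 0.98 ± 0.24 in HH. Of 13 NF-kB targets, 8 rose in each mutant. Those with the smallest p were Birc3, Tnf and Tnfaip3 in HL1002P (1.47 ± 0.26, 1.39 ± 0.26 and 1.398 ± 0.29), and Vcam1, Tnfaip3 and Icam1 in HH (1.60 ± 0.30, 1.46 ± 0.29 and 1.17 ± 0.24). The largest log2 fold changes of the list, 2.569 in HL1002P and 2.919 in HH, belonged to other genes. B and T cell markers were also higher on average in the mutants in the same fat libraries, and their part in these lists was not tested. With the lymphocyte covariate 0 genes of any list passed, beside 0% of all genes. The lymphocyte level and the genotype cannot be told apart in fat, so that count cannot decide anything about the lists. With the macrophage covariate the calls in HH fat were 2 sensors, 0 receptor and JAK-STAT genes, 0 ISG15 enzymes, 0 other type I genes, 1 interferon gamma-responsive gene and 2 NF-kB targets, while the share of all genes called went from 20.8% to 2.96%. In HL1002P fat they were 9, 5, 2, 11, 6 and 8 in the same order, with 24.2% of all genes called.

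The counts of these lists moved when 1 library was left out, and so did the share of all genes called, which ran from 12.2% to 42.6% in HL1002P fat and from 5.01% to 25.5% in HH fat. In HL1002P fat the genes called in either direction numbered 6 to 15 for the sensors, 2 to 9 for the receptors and JAK-STAT genes, 0 to 3 for the ISG15 enzymes, 5 to 15 for the other type I genes, 5 to 11 for the interferon gamma-responsive genes and 8 to 9 for the NF-kB targets. The low counts came without WT replicate 1 or 2 or without HL1002P replicate 1, 2 or 3. In HH fat they numbered 2 to 9, 1 to 7, 0 to 1, 0 to 10, 1 to 7 and 6 to 9 in the same order, and the low counts came without WT replicate 1 or 2 or without HH replicate 2 or 3. The 1 ISG15 enzyme and 2 of the 5 receptor and JAK-STAT calls in HH were also lost without WT replicate 4. Of the 16 genes named above for HH fat, 8 lost the call without HH replicate 2, 9 without HH replicate 3, and 5 without WT replicate 1 and without WT replicate 2. Of the 17 named for HL1002P fat, at most 3 lost it, without HL1002P replicate 2 (Herc6, Irf9 and Uba7). Tlr9, Aim2, Ciita, Tyk2 and the NF-kB target Tnfaip3 passed in both mutants whichever library was left out.

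The 9 genes varied together across libraries to different degrees. The correlations that follow are descriptions over 11 muscle or 12 fat libraries, which share groups, depth and cell makeup. In muscle, Oasl2 followed the mean log2 CPM of the other 8 genes most closely (Pearson r = 0.982) and Rsad2 least (0.232). Without HL1002P replicate 4 these were 0.969 and 0.004. In fat, Ifit1 (0.928) and Ifit2 (0.926) were closest and Oasl2 was the least alike (0.163). Without HH replicate 2 Ifit1 was at 0.854, Ifit2 at 0.825 and Oasl2 at 0.076, and Rsad2 went from 0.456 to -0.077, the lowest of the 9. Among all other genes, those most like the mean of the 9 in muscle, of 11650 genes with at least 1 CPM on average, were Tnfaip8l2, Hpse, Sp110, Inhbb and Samhd1 (r from 0.946 to 0.930, and from 0.941 to 0.869 without HL1002P replicate 4). In fat, of 13587 genes, they were Mx2, Tnc, Tnfsf15, Oas1g and Cmpk2 (r from 0.900 to 0.868). Without HH replicate 2 these fell to between 0.780 and 0.716. Mx2, Oas1g and Cmpk2 are known interferon-stimulated genes, and Samhd1 and Sp110 are as well.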

How the data were processed

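The submitters' processing notes name TopHat2 (version 2.0.14), Bowtie2 (2.2.6), Subread's featureCounts (1.4.6) and the mm10 genome build; strand and multi-mapping settings are not given in the sources used here. Values that the authors deposited are whole-number read counts per gene for 23 libraries, and no column was left unused (0). Counts were tested with edgeR 4.0.16 in R 4.3.3 (filterByExpr, TMM, glmQLFit and glmQLFTest), in 1 fit per tissue and, for comparisons between tissues, 1 fit over all libraries, with Benjamini-Hochberg adjustment over all genes tested and a threshold of 0.05. DESeq2 1.42.0 was an alternative. Standard errors are the log2 fold change divided by the square root of F. RPKM used exon lengths of GENCODE genes on GRCm38. Named genes are the 9 genes, Bub1b, up to 3 called genes with the smallest p per pathway list and comparison, and the 5 genes per tissue most correlated with the mean of the 9, passing over Gm and Rik symbols. The genes and lists were chosen with earlier results of these data known. No pair of libraries agreed within sampling noise (chi-square per gene at least 32.9). Equal replicate numbers correlated above 0.1 in every pair only for HL1002P against HH muscle (0.271 to 0.363), where the labels state no shared animal, and with the replicate block 0 of the 9 genes passed there, as without it, while their median log2 difference moved from 0.204 to 0.023.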

Additional observations from a re-analysis of the deposited data

Results flagged for a closer look

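Of 45 sets of 4 libraries (each gene in each group of 4), 5 held a library far from the other 3 by Dixon's test. Chance gives about 1 in 20 for a single set. The sets are not independent, because the genes vary together in the same libraries, so the 5 cannot be weighed against that rate. In HL1002P muscle, replicate 4 had Ifit3 at 10.38 CPM, with the other libraries at 3.498 to 3.9 CPM, and Irf7 at 10.47 CPM, with the others at 4.204 to 4.577 CPM. The same library had the highest macrophage marker sum in muscle, 462.9 CPM, with the other HL1002P libraries at 152 to 269.4 CPM, and the part of these cells in the values was not tested beyond the covariate fit given above. In HH fat, replicate 2 had Ifit1 at 25.09 CPM, with the others at 7.885 to 9.979 CPM, and Ifit2 at 40.72 CPM, with the others at 16.06 to 18.73 CPM. In HL1002P fat, replicate 3 had Rsad2 at 10.4 CPM, with the others at 6.401 to 6.901 CPM. No genotype difference of the 9 genes differed between the tissues past the threshold.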

How the results depend on the processing

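The number of the 9 genes that passed stayed at 0 in muscle, between the mutants and in both interactions under all alternatives run. In fat against WT, 1 passed. It was 2 for HL1002P and 2 for HH with DESeq2, 2 for HL1002P with only the 2 groups compared or without the 3 libraries with muscle fibre transcripts (an alternative added after seeing the data), 0 for both with the lymphocyte covariate, 0 for HH with the macrophage covariate, and 0 to 2 in each when 1 library was left out. For WT fat against WT muscle the count of 9 became 0 with either covariate. The share of all genes called there went from 73.5% to 26.7% with the lymphocyte covariate and to 19.4% with the macrophage covariate. The replicate block left 1 and 1 in fat and changed no other call. DESeq2 called 1.29% of all genes in HL1002P muscle, against 0.117% with edgeR. Signs changed mostly with the marker covariates. With the macrophage covariate, HL1002P muscle gave -0.16 (Ifit1), -0.0064 (Ifit2), -0.62 (Ifit3), -0.21 (Bst2) and -0.17 (Usp18), and HH muscle -0.19 (Isg15), -0.11 (Ifit1), -0.77 (Ifit3), -0.10 (Oasl2) and -0.47 (Bst2). HL1002P fat gave -0.0025 (Ifit2), and HH fat -0.053 (Isg15), -0.056 (Ifit1), -0.048 (Ifit2) and -0.42 (Rsad2). Between the WT tissues it gave -0.39 (Isg15), -1.54 (Ifit1), -0.80 (Ifit2), -1.65 (Ifit3), -0.75 (Irf7), -0.54 (Rsad2), -0.026 (Oasl2), -0.52 (Bst2) and -0.75 (Usp18). With the lymphocyte covariate, HL1002P muscle gave -0.016 (Ifit3) and -0.089 (Usp18), HH muscle -0.36 (Ifit3) and -0.24 (Bst2), HL1002P fat -0.23 (Ifit2) and 0.75 (Ifit3), HH fat 0.0012 (Oasl2), HL1002P against HH fat -0.070 (Usp18), and the WT tissues -0.69 (Usp18). With only the 2 groups compared, Ifit3 in HL1002P fat was 0.0039. The cause of these changes was not tested. When 1 library was left out, values crossed 0 in HL1002P muscle for Ifit3 (-0.020 to 0.93) and Usp18 (-0.047 to 0.15), and in HH muscle for Isg15 (-0.033 to 0.46), Ifit2 (-0.032 to 0.63), Ifit3 (-0.41 to 0.58), Bst2 (-0.21 to 0.41) and Usp18 (-0.43 to 0.22). They did so in HL1002P fat for Ifit3 (-0.23 to 0.24), and in HH fat for Isg15 (-0.0044 to 0.56), Ifit1 (-0.099 to 0.68) and Rsad2 (-0.53 to 0.46). Between the mutants and in the interactions, only the lowest and highest genes and, where fat was compared, Irf7 were followed singly. Of these, Rsad2 (-0.92 to 0.072), Usp18 (-0.17 to 0.27) and Irf7 (-0.40 to 0.14) crossed 0 between the mutants in fat. Others changed sign as well: 2 of the 9 genes were above 0 there with all libraries and 8 without HH replicate 2. Between the mutants in muscle 8 were above 0 with all libraries, and 3 without HL1002P replicate 4 or without HH replicate 1. All 33 calls of named pathway genes were lost with the lymphocyte covariate, with which 0% of all genes passed in either mutant in fat. In muscle the 9 genes had 35 to 1258 counts per library.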
